A study of Mus musculus with 6 samples.

Results

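Accessible chromatin regions whose rank among all shared regions was lower in every library of hematopoietic stem cells (HSCs) from tunicamycin-injected mice than in every library from DMSO-injected mice are described here. They were selected on the measured values themselves: peaks of 6 libraries on chromosomes 1 to 19, X and Y that overlapped by at least 1 bp were merged, regions called in all 6 libraries were kept, and within each library every such region was given the percentile of its highest fold enrichment. A region was a member when its highest tunicamycin percentile lay below its lowest DMSO percentile. This held for 946 of 20810 shared regions (4.55% of the shared regions), out of 82993 merged regions in all. The opposite order, with every tunicamycin percentile above every DMSO percentile, held for 970 shared regions (4.66%). Because the selection used these values, the percentiles and folds below are descriptions and carry no test.

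HSCs are the rare bone marrow cells that renew themselves and give rise to all blood lineages. Tunicamycin blocks the first step of N-linked glycosylation, so that glycoproteins misfold in the endoplasmic reticulum (ER) and the unfolded protein response, a set of stress pathways that raise chaperones and lower protein synthesis, is switched on. ATAC-seq marks open chromatin by the insertions of a transposase, which reaches promoters and enhancers that are free of nucleosomes more easily than packed DNA. A lower rank of a region in a library means less insertion signal there relative to the other regions of that library, not an absolute loss.

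Both groups were wild-type C57BL/6J mice and both received an intraperitoneal injection: the tunicamycin group (3 libraries, at 2 mg/kg) and the DMSO group (3 libraries, the solvent). HSCs were sorted as CD48-CD150+LSK cells, and about 5000 cells went into each library. The labels give neither age, nor time after injection, nor whether libraries of a group came from separate animals, so the spread between libraries may be technical. Of 10 HSC marker genes, 7 had a shared region at or within 1 kb of the gene (all but Ly6a, Slamf1 and Fgd5). Of 14 markers of other cell types 2 did, Cd48 and the endothelial gene Pecam1, and the T-cell, B-cell, neutrophil, macrophage, erythroid and collagen markers had none. The tunicamycin lists held 44952, 56865 and 47789 peaks, against 62478, 38217 and 28501 in the DMSO lists, so the DMSO libraries spanned a wider range than the tunicamycin libraries. Read depth is unknown from peak lists.

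Sequence was at hand for members that overlapped a promoter window, taken here as 250 bases before to 50 bases after a gene start in RefSeq (GRCm38.p6, the assembly that mm10 denotes). The windows of the 6 such members with the widest separation between the groups are shown, because they are the gene starts where the order of the libraries was clearest. They are Gm14403 (chr2:177497976-177498275, plus strand), a long noncoding RNA; Pgs1 (chr11:117986607-117986906, plus strand); Gramd2 (chr9:59679904-59680203, plus strand); Aadat (chr8:60505874-60506173, plus strand); Emc9 (chr14:55585205-55585504, minus strand) and 5730409E04Rik (chr4:126609604-126609903, plus strand). Each is written 5′ to 3′ along the gene, with capitals for any match on either strand to a searched motif. These were the CCAAT box (its name gives the letters), the GC box (spelled GGGCGG), the ETS motif (spelled CCGGAAG), the CRE (spelled TGACGTCA), the AP-1 site (spelled TGANTCA), the RUNX site (spelled TGTGGT), the GATA site (spelled AGATAA), the E-box (spelled CACGTG), the NRF1 site (spelled GCGCATGC), the closing part of the ER stress response element (spelled CCACG) and the TATA box (spelled TATAAA).
Gm14403: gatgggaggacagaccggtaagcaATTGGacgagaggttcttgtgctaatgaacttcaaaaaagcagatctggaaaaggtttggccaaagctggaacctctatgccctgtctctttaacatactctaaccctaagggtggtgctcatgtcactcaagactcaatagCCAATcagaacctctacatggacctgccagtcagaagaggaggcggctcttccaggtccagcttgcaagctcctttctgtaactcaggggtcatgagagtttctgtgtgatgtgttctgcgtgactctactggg
Pgs1: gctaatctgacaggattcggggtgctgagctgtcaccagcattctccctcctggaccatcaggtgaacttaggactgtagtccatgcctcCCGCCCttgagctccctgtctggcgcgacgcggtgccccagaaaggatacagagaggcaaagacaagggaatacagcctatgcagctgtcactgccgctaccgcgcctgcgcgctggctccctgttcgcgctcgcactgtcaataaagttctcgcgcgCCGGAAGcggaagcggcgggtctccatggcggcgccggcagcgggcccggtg
Gramd2: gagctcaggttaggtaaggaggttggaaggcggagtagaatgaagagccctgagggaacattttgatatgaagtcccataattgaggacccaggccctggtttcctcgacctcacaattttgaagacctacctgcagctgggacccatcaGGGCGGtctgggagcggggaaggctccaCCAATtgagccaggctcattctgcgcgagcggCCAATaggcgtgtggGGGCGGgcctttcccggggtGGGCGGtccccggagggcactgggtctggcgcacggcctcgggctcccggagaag
Aadat: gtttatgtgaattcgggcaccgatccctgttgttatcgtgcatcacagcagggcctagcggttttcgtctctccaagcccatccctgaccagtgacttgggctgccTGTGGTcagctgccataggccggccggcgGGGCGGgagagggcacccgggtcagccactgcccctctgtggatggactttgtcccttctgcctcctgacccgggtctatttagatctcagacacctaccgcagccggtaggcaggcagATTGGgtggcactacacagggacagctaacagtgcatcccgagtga
Emc9: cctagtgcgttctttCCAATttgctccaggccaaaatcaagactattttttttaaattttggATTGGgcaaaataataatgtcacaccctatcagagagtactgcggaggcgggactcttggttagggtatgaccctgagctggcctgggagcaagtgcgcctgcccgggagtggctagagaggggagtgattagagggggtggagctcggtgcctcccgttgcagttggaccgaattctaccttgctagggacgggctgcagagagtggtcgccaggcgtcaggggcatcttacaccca
5730409E04Rik: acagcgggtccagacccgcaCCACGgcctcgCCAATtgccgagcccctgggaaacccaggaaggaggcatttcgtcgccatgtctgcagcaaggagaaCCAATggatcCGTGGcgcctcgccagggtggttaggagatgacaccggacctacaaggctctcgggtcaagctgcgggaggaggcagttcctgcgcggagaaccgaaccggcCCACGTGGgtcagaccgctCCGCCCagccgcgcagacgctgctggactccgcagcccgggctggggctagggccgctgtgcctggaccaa

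These 6 windows differed in makeup. A CCAAT box stood in 5 of them and was lacking from Pgs1, whose window held 1 GC box and 1 ETS match and 63.3% G or C. The Gramd2 window held 3 GC boxes and 2 CCAAT boxes, and the Aadat window 1 GC box, 1 CCAAT box and 1 RUNX match. In 5730409E04Rik, 4 CCACG matches were found, of which some overlapped its E-box match since CCACG and CACGTG share letters. The Gm14403 window was the poorest in CpG, with 4 CpG sites and 49.0% G or C. None of the 6 held a CRE, AP-1, GATA, NRF1 or TATA match, which says only that these letters are not in these windows.

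The separation of a member was measured as its gap, the lowest DMSO percentile minus the highest tunicamycin percentile. Most members were separated narrowly: the median gap was 3.01 percentile points (quartiles 1.15 and 6.17), and 216 members (22.8%) had a gap under 1 point. A gap above 5 points was reached by 307 regions (1.48% of the shared regions), above 10 points by 103 (0.495%) and above 20 points by 6 (0.0288%). The median member stood at a mean percentile of 28.1 in the tunicamycin libraries and 49.7 in the DMSO libraries. By library, the median percentile of the members was 27.9, 28.1 and 28.0 in tunicamycin libraries, against 48.4, 50.2 and 52.5 in DMSO libraries. The median member thus lay near the middle of the ranking in DMSO libraries and in the lower part in tunicamycin libraries, an order that the selection fixed.

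The same members differed less plainly on the deposited fold scale. Each library had its own level, with a median fold over shared regions of 7.53, 8.22 and 7.84 in tunicamycin libraries, against 9.19, 6.93 and 5.91 in DMSO libraries. After division by these medians, the mean fold of the median member in tunicamycin libraries was 0.814 of that in DMSO libraries (quartiles 0.769 and 0.854, range 0.534 to 0.967), against 0.977 over all shared regions. On the folds as deposited, 111 members (11.7%) had all 3 tunicamycin values below all 3 DMSO values, against 230 of the 20810 shared regions (1.11%). The DMSO 3 library, with the fewest peaks, also had the coarsest values: 5849 distinct folds over the shared regions and up to 304 regions tied at the same fold, against 9114, 9782 and 9493 distinct folds in the tunicamycin libraries.

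The count was set beside that of every other way of dividing the 6 libraries into 3 low and 3 high. Over the 20 ordered splits the counts ran from 752 to 1963 with a median of 934, and the tunicamycin-low split, with 946, ranked 10 of 20, next to the tunicamycin-high split with 970. The most regions, 1963, were ranked lower in tunicamycin 2, tunicamycin 3 and DMSO 1 than in the other 3 libraries, and the fewest, 752, in tunicamycin 1, tunicamycin 2 and DMSO 2. The number separated by treatment was therefore close to the middle of what mixed divisions of the same libraries gave. Wide gaps were no more frequent: the tunicamycin-low split ranked 12 of 20 for gaps above 5 points (307, splits 228 to 709) and for gaps above 10 points (103, splits 80 to 293), and 18 of 20 for gaps above 20 points (6, splits 5 to 62). Its largest single gap, 41.3 points, was the fourth largest of the 20, where the largest was 48.0.

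**Figure D1:**
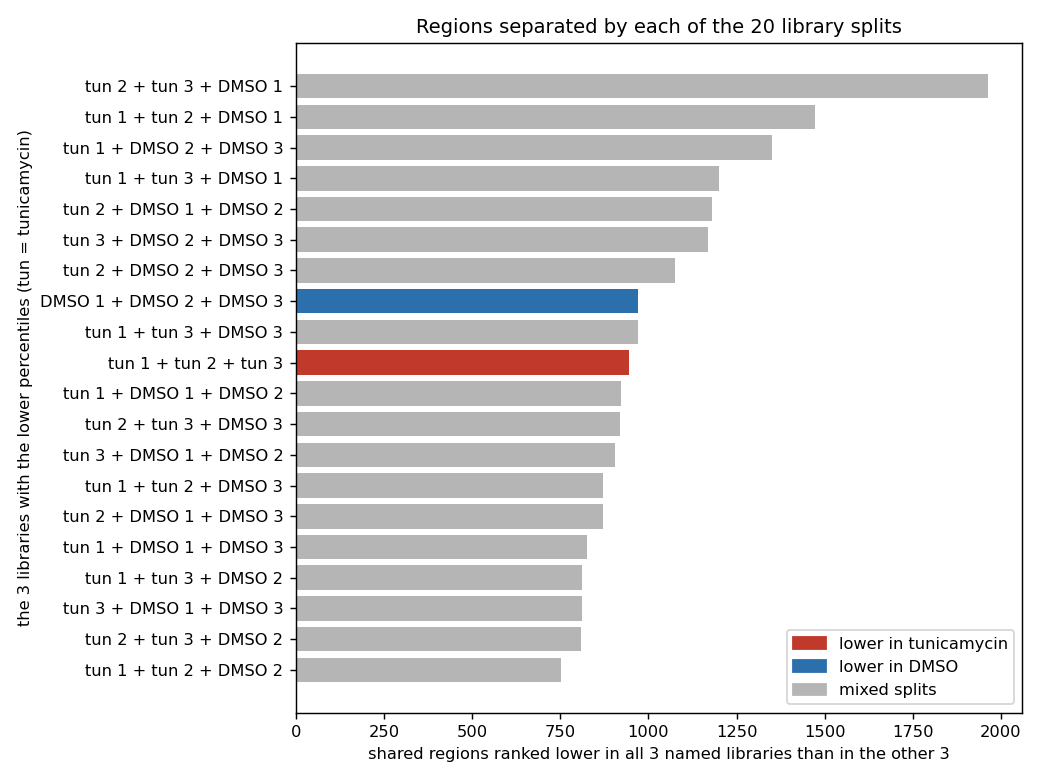
Number of shared regions (x axis) ranked lower in the 3 named libraries than in the other 3, for each of the 20 ordered splits (y axis). The tunicamycin-low split (946, red) and the DMSO-low split (970, blue) lie near the middle of the mixed splits (grey), which run from 752 to 1963.

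DMSO 1 bore on this count more than any other library. It set the lower DMSO bound in 417 members, against 285 for DMSO 2 and 244 for DMSO 3, while the upper tunicamycin bound came from tunicamycin 1 in 349, tunicamycin 2 in 311 and tunicamycin 3 in 286. With DMSO 1 left out, 3418 of 20914 shared regions (16.3%) were ranked lower in tunicamycin, the highest count of the 10 ordered splits of those 5 libraries (1732 to 3418). Leaving out a library eases the criterion, so counts rise in every such case. They were 1856 without DMSO 2 (8.46% of the regions then shared) and 2618 without DMSO 3 (9.46%). Without tunicamycin 1, tunicamycin 2 or tunicamycin 3 they were 1845 (8.71%), 1712 (8.18%) and 1677 (7.97%). Their ranks among 10 splits were 7 to 9, so the first rank was reached only without DMSO 1.

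The widest separation was inside Taok3, which encodes a TAO-family protein kinase. The region, chr5:117149361-117149807 (mm10), lay 29.2 kb downstream of the gene start and stood at percentiles 10.9, 13.2 and 2.87 in tunicamycin libraries, against 54.5, 63.2 and 57.7 in DMSO libraries. Its folds as deposited were 4.81, 5.42 and 4.00 in tunicamycin libraries, against 9.55, 7.85 and 6.37 in DMSO libraries, so the groups did not overlap on either scale. Taok3 had 4 shared regions. The one at its start did not separate the groups, with percentiles of 53.2, 53.1 and 56.6 in tunicamycin libraries and 27.8, 64.7 and 47.9 in DMSO libraries, and a region at chr5:117146167-117146608, between the start and the member, was ranked higher after tunicamycin (49.8, 54.1 and 45.8, against 44.5, 38.4 and 40.9 in DMSO libraries).

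The next members by gap lay at genes of unlike function. A region at the start of the noncoding RNA Gm14403 (chr2:177497877-177498752), whose window is printed above, stood at 37.0, 13.7 and 40.6 in tunicamycin libraries, against 82.9, 63.8 and 75.2 in DMSO libraries. Its nearest protein-coding gene, Zfp970, is 18.7 kb away and belongs to a family of zinc-finger genes with near-identical copies, and since the mapping filter is not stated, signal from such copies cannot be told apart. Inside Thrb, which encodes thyroid hormone receptor beta, chr14:18001884-18002408 stood at 30.2, 41.9 and 35.0 in tunicamycin libraries, against 73.9, 75.7 and 63.3 in DMSO libraries. At the start of Pgs1, an enzyme of cardiolipin synthesis, chr11:117986573-117987371 stood at 18.3, 11.9 and 18.3, against 39.2, 44.2 and 43.7 in DMSO libraries. In all 4 of these regions every tunicamycin value was at least 20 points under every DMSO value. Cryaa, a lens crystallin with chaperone activity, was the nearest gene to chr17:31721407-31722153, 39.7 kb away, with 29.3, 13.4 and 18.1 in tunicamycin libraries and 50.3, 55.9 and 50.1 in DMSO libraries. The Gramd2 start, chr9:59679954-59680467, had 21.5, 12.5 and 11.9 in tunicamycin libraries and 41.6, 56.5 and 60.4 in DMSO libraries. These 6 regions were all the members with a gap above 20 points.

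The other 6 of the 12 widest gaps ran from 18.3 to 19.9 points. Neither Nploc4 nor Emc9 among them stood in a gene list, and no share of members was counted for genes of their kind. Nploc4 encodes a cofactor of the p97 ATPase that draws misfolded proteins out of the ER, and the region inside it, chr11:120404874-120405212, stood at 5.78, 24.8 and 3.36 in tunicamycin libraries, against 56.1, 44.7 and 63.3 in DMSO libraries. Emc9 encodes a subunit of the complex that inserts proteins into the ER membrane, and the region at its start, chr14:55584894-55585775, stood at 58.5, 46.6 and 57.7 in tunicamycin libraries, against 86.7, 76.8 and 91.9 in DMSO libraries. The Emc9 region was the most accessible of the 12, above the median in 2 of 3 tunicamycin libraries. At the start of Aadat, an aminotransferase of lysine and tryptophan breakdown, chr8:60505555-60506357 stood at 1.36, 17.95 and 30.3 in tunicamycin libraries, a wide spread, against 67.2, 66.6 and 50.1 in DMSO libraries. The keratin-family gene Krt222 held chr11:99238422-99238875, with 34.6, 35.6 and 35.0 in tunicamycin libraries and 81.7, 54.6 and 63.3 in DMSO libraries. Nfia encodes a transcription factor of the nuclear factor I family, and chr4:97657552-97658176, 75.6 kb into it, had 30.2, 50.8 and 37.1 in tunicamycin libraries and 88.5, 69.7 and 73.9 in DMSO libraries. A region 18.2 kb upstream of Atoh8, which encodes a basic helix-loop-helix factor, lay at chr6:72253821-72254788 within the noncoding gene Gm30782. It had 41.5, 37.7 and 31.2 in tunicamycin libraries and 60.0, 61.5 and 62.9 in DMSO libraries, the least spread within DMSO of the 12 (SD 1.40 points, n = 3). The region at the 5730409E04Rik start, whose window is also shown, ranked 15 by gap, with 11.0, 9.74 and 9.79 in tunicamycin libraries and 45.2, 28.4 and 38.7 in DMSO libraries.

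**Figure D2:**
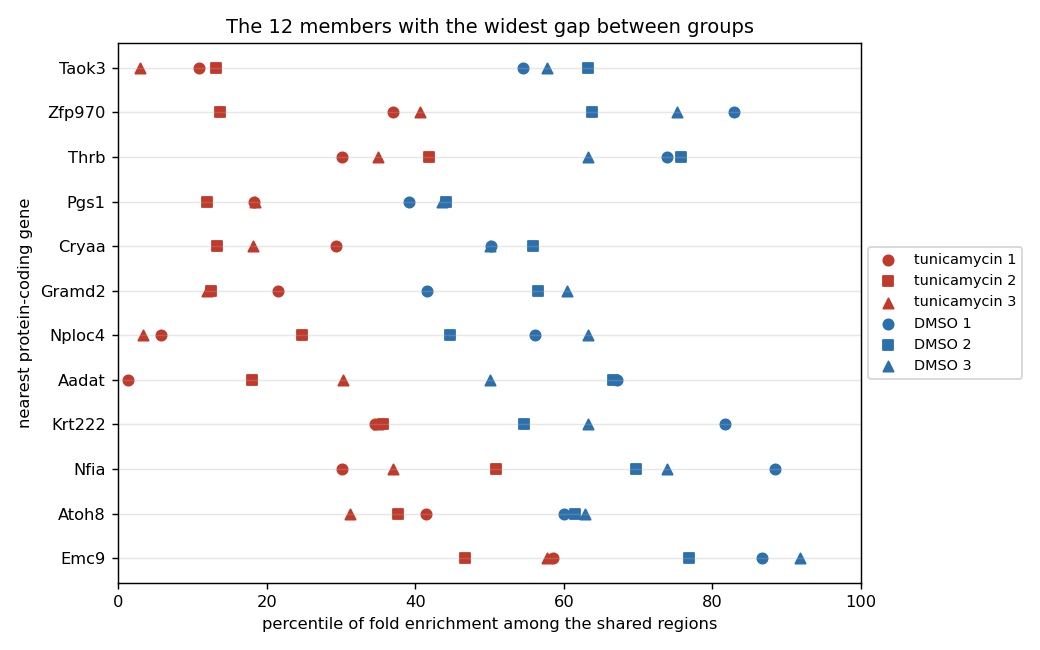
Percentile of fold enrichment among the shared regions (x axis) for the 12 members of widest gap, named by their nearest protein-coding gene (y axis), with 1 point per library (red, tunicamycin; blue, DMSO). At Taok3 the tunicamycin points lie between 2.87 and 13.2 and the DMSO points between 54.5 and 63.2.

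Genes of HSC identity were nearest to 118 shared regions, of which 8 were ranked lower (6.78%) and 11 higher, beside 4.55% lower and 4.62% higher over the 20188 shared regions within 100 kb of any protein-coding gene. The widest was a region 38.4 kb past the end of Kit, the receptor for stem cell factor: chr5:75695098-75695908 stood at 14.0, 8.53 and 29.3 in tunicamycin libraries, against 45.8, 50.3 and 50.1 in DMSO libraries. Its folds as deposited overlapped (5.06, 4.97 and 6.40 in tunicamycin libraries, 8.85, 6.94 and 5.91 in DMSO libraries). The 3 other shared regions nearest to Kit, 2 of them at or within 1 kb of its start, did not separate the groups. Near Lmo2, an adaptor of blood transcription factors, chr2:103944906-103945299 stood at 11.4, 12.04 and 9.87 in tunicamycin libraries, against 18.7, 57.0 and 21.0 in DMSO libraries. A neighbouring region of Lmo2, chr2:103945547-103946190, was ranked higher, with 40.6, 23.1 and 30.4 in tunicamycin libraries and 18.9, 7.62 and 6.98 in DMSO libraries. At the start of Lyl1, a basic helix-loop-helix factor of stem and progenitor cells, chr8:84701136-84701911 had 4.77, 5.52 and 2.86 in tunicamycin libraries and 7.70, 14.0 and 22.0 in DMSO libraries. The remaining members of the list were at Zfp36l2, Tal1, Erg, Egr1 and Nr4a1, with gaps of 3.54, 0.742, 0.615, 0.505 and 0.156 points, Erg being named beyond the rule to complete the list. All 8 regions but the Kit region had gaps under 7 points.

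Cell-cycle genes held 5 members among 68 shared regions (7.35%) and 1 region ranked higher. Inside E2f2, an activator of S-phase genes, chr4:136185427-136185916 stood at 31.5, 23.6 and 7.37 in tunicamycin libraries, against 50.1, 41.1 and 49.3 in DMSO libraries. At the other shared regions nearest to E2f2 the groups overlapped. The start of Mcm5, a subunit of the replicative helicase, had 75.4, 80.0 and 71.6 in tunicamycin libraries and 94.7, 86.4 and 92.4 in DMSO libraries. At Cdkn1a, the p53 target that halts the cycle, a region 1.07 kb into the gene had 32.5, 26.2 and 31.7 in tunicamycin libraries and 37.8, 52.6 and 46.9 in DMSO libraries. The other shared regions nearest to Cdkn1a, at its start and 8.55 kb upstream, did not separate the groups. Ccnd3 and Ccna2, cyclins of G1 and of S phase, had members at opposite ends of the ranking, with gaps under 1 point. The Ccnd3 member stood at 0.329, 0.423 and 0.0841 in tunicamycin libraries, against 2.81, 1.38 and 1.14 in DMSO libraries. It lay 18.2 kb past a gene start and was the only 1 of 9 shared regions at Ccnd3 that was ranked lower. A neighbouring Ccnd3 region stood at 86.5, 83.3 and 58.8 in tunicamycin libraries and 81.8, 77.2 and 80.4 in DMSO libraries. The Ccna2 member had 98.8, 97.2 and 98.8 in tunicamycin libraries, against 99.4, 99.8 and 99.0 in DMSO libraries. The members near these genes thus included activators and an inhibitor of division.

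Among the lists that bear on the treatment, the share of members lay below the 4.55% over all genes in all but the oxidative stress list. Each had 1 to 3 members, and no test was made. Of 57 shared regions nearest to ER stress response genes 1 was ranked lower (1.75%) and 0 higher. It lay 15.3 kb upstream of Os9, a lectin that guides misfolded glycoproteins to degradation, with 44.0, 63.2 and 48.7 in tunicamycin libraries and 67.1, 77.2 and 75.2 in DMSO libraries. Genes of N-linked glycosylation had 1 member of 44 (2.27%), inside Tusc3, a subunit of the oligosaccharyltransferase, with 61.4, 54.4 and 63.9 in tunicamycin libraries and 74.8, 66.1 and 69.6 in DMSO libraries. Another region inside Tusc3 was ranked higher, with 83.5, 89.8 and 90.8 in tunicamycin libraries and 78.1, 75.7 and 36.9 in DMSO libraries. The integrated stress response, the branch that dampens protein synthesis, had 1 member of 50 (2.00%) and 7 regions ranked higher (14%, against 4.62% over all genes). That member was assigned to the stress factor Atf3 but lay 40.7 kb upstream of it, in the promoter window of the noncoding RNA D730003I15Rik, with 48.2, 49.1 and 46.1 in tunicamycin libraries and 52.0, 49.4 and 52.5 in DMSO libraries. A region 17.8 kb upstream of Atf3 was ranked higher by a wider difference, with 66.1, 54.6 and 55.7 in tunicamycin libraries and 38.5, 6.04 and 36.1 in DMSO libraries. Autophagy genes had 1 member of 49 (2.04%), at the start of Gabarap (gap 0.476 points), and apoptosis and p53 genes 2 of 51 (3.92%), at Bak1 and Bax (gaps of 1.10 and 0.0673 points). Oxidative stress genes had 3 of 43 (6.98%), at Sod1, Foxo3 and Nfe2l2, with gaps of 5.15, 2.30 and 1.20 points. Beside the 14% ranked higher at integrated stress response genes, the next highest shares were 10.3% (neutrophil and monocyte), 9.32% (HSC identity) and 9.09% (lymphoid).

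Signalling genes of the niche and of cytokines had 6 members among 112 shared regions (5.36%) and 7 regions ranked higher. Itga6, the laminin-binding integrin alpha 6 chain, had a pair of them among its 3 shared regions. The region at chr2:71843294-71843717 stood at 28.5, 34.2 and 23.0 in tunicamycin libraries, against 56.5, 49.7 and 70.9 in DMSO libraries, and that at chr2:71813906-71814515 at 65.3, 46.7 and 70.8 in tunicamycin libraries, against 74.0, 81.9 and 83.4 in DMSO libraries. Near Socs3, a feedback inhibitor of JAK-STAT signalling, chr11:117954077-117954477 had 7.25, 9.67 and 5.29 in tunicamycin libraries and 23.8, 32.8 and 30.3 in DMSO libraries, while the other 6 shared regions nearest to Socs3, among them the one at its start, did not separate the groups. Inside Jak1, the kinase upstream of it, chr4:101155533-101155975 had 23.2, 13.8 and 24.7 in tunicamycin libraries and 56.4, 33.6 and 41.2 in DMSO libraries. A region 26.8 kb upstream of the Jak1 start was ranked higher, with 30.6, 52.9 and 78.4 in tunicamycin libraries and 28.3, 19.1 and 26.6 in DMSO libraries. The other members of the list were at Tgfb1 and Smad7, with gaps of 2.70 and 0.120 points, and Smad7 is beyond the 4 per list that the naming rule allows.

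Immediate early and AP-1 genes, which respond within minutes to many stimuli and to cell handling, had 3 members of 98 (3.06%), at Egr3, Egr1 and Nr4a1. The Egr1 region ranked at the bottom in the tunicamycin libraries, with 0.733, 1.17 and 0.252, against 1.68, 10.8 and 10.9 in DMSO libraries. At the other shared region nearest to Egr1 the groups overlapped. NF-kB genes had 3 of 74 (4.05%), at Tnfrsf1b, Birc3 and Nfkbie, with gaps of 3.81, 0.0865 and 0.202 points. Interferon response genes had 4 of 60 (6.67%), near Gbp6, Irf2 and Irf8 and at the start of Ifit2, with gaps of 8.12, 4.90, 4.60 and 2.37 points. Chromatin regulators had 5 of 86 (5.81%) and 7 ranked higher. Among them the start of Tet3, an enzyme that oxidises methylated cytosine, had 50.2, 29.6 and 35.9 in tunicamycin libraries and 56.4, 58.5 and 69.3 in DMSO libraries, and a region 0.701 kb past the start of Dnmt3a, a DNA methyltransferase often mutated in clonal hematopoiesis, had 16.9, 7.88 and 16.4 in tunicamycin libraries and 19.2, 52.5 and 27.6 in DMSO libraries. Of the 6 shared regions nearest to Dnmt3a, this was the only 1 ranked lower, and 0 were ranked higher. The other members of the list were at Chd7, Kmt2a and Kmt2d, with gaps of 5.50, 1.87 and 0.466 points.

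Ribosomal protein genes had 3 members of 39 shared regions (7.69%), at Rpl13, Rpl7 and Rpl8, and 0 regions ranked higher. Over all genes 4.55% were ranked lower and 4.62% higher, so counts this small differ little from those shares. The Rpl13 start had 55.8, 69.0 and 52.1 in tunicamycin libraries and 76.7, 84.0 and 85.3 in DMSO libraries, the widest gap of the 3 (7.64 points). Genes of mitochondria and glycolysis had 3 of 57 (5.26%), at Pink1, Pkm and Slc2a3, with gaps of 1.84, 1.67 and 1.02 points. Of the lineage lists, members made up 2 of 23 erythroid (8.70%, Car2 and Tal1), 2 of 29 neutrophil and monocyte (6.90%, Irf8 and Mmp9), 2 of 44 lymphoid (4.55%, Dntt and Tcf12), 0 of 36 megakaryocyte and 1 of 30 stroma and endothelium regions (3.33%), the last near Pecam1 with a gap of 0.447 points. Of the EMP and PMP22 family, 5 regions were shared and 0 were members. Emp1, a membrane protein of that family, had 3 shared regions, and the one nearest its start, chr6:135364168-135364785, stood at 80.8, 79.4 and 49.4 in tunicamycin libraries and 52.6, 48.1 and 34.8 in DMSO libraries, groups that overlapped. Over the 21 lists, 10 had a share of members above that of all genes and 11 below it, with 0 to 8 members per list and no test of any list.

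The members did not gather at few genes. Within 100 kb, 919 members had a nearest protein-coding gene, and these were 884 distinct genes, of which 27 had 2 members and 4 had 3. Over all shared regions within 100 kb of a gene there were 11632 nearest genes, of which 884 had a region ranked lower and 888 a region ranked higher. At 67 genes the same gene had both, among them Chd7, Irf2, Smad7 and Tcf12, each with 1 in either direction. Whether this overlap departs from that of unrelated rankings was not tested. Srcin1, which encodes an inhibitor of Src kinase, was the only one of the 4 genes at which all shared regions were members. Its regions, within 14.9 kb at chr11:97531701-97546568, all ranked low: they stood at 10.9, 7.45 and 10.2, at 3.89, 4.56 and 5.74, and at 1.61, 4.64 and 6.12 in tunicamycin libraries, against 23.1, 23.2 and 35.0, then 16.4, 9.51 and 25.02, then 22.1, 17.0 and 16.1 in DMSO libraries. Sema4d, a semaphorin of immune cells, had 3 of 9 shared regions ranked lower, with gaps of 17.0, 11.8 and 0.754 points, and 2 ranked higher. Slc6a6, the taurine transporter, had 3 of 7, with gaps of 7.36, 4.07 and 0.284 points, and Zfp704, a zinc-finger gene, 3 of 7 with gaps of 6.06, 3.64 and 0.101 points.

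Close neighbours seldom shared the ranking. Of the members, 454 (48.0%) had another shared region within 10 kb, against 38.6% of all shared regions, and in 13 of these (2.86%) the nearest one was also a member, while in 17 (3.74%) it was ranked higher. Over all shared regions with such a neighbour, that neighbour was ranked lower in 5.58% and higher in 3.86%. Members chained within 50 kb of each other made 63 pairs and 5 groups of 3, which together held 141 members. Such groups were not counted for other sets of regions, so these numbers have no comparison. Besides Srcin1 the groups of 3 were at Tha1, Socs3 and Pgs1 (chr11:117912580-117987371, 3 of 9 shared regions in the span), at Cdc25c, Fam53c and Kdm3b (chr18:34751430-34779615, 3 of 4), at Fam167b and Dcdc2b (chr4:129575054-129609096, 3 of 4) and at Lpcat3, Atn1 and Lrrc23 (chr6:124702771-124779979, 3 of 9). The phosphatase gene Cdc25c, a trigger of mitosis, held one of the highest-ranked members, with 99.6, 99.8 and 99.3 in tunicamycin libraries and 99.9 in each DMSO library.

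Level, the mean percentile over the 6 libraries, comes from the same percentiles that chose the members, so its values are descriptions, while position was no part of the rule. With shared regions cut into 10 equal bins by this mean, 6.63% of the lowest bin were members and 3.12% of the highest. Regions ranked higher ran the other way, with 3.99% in the lowest bin and 5.62% in the highest. Both directions are partly built in, since the mean holds the tunicamycin percentiles, which the selection takes as low or as high. In DMSO libraries alone the median percentile of the members was 48.4, 50.2 and 52.5, near the middle of the ranking. The median width of a member was 716.5 bp (256 to 4170 bp), against 775 bp over all shared regions, and 13.0% of members held several peaks of a library, against 13.5%. Members lay on every chromosome but Y, and on X there were 11 (1.16% of members, against 1.70% of all shared regions).

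**Figure D3:**
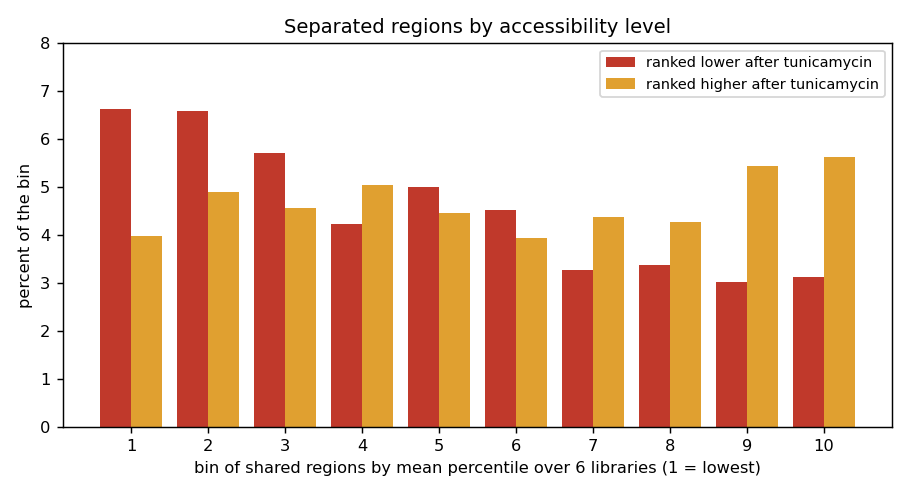
Percent of shared regions (y axis) ranked lower (red) and higher (orange) after tunicamycin in each of 10 equal bins of mean percentile over the 6 libraries (x axis, lowest at left). Members make up 6.63% of the lowest bin and 3.12% of the highest.

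Inside protein-coding genes lay 682 members (72.1%), against 73.5% of all shared regions. Members were somewhat less often close to a gene end. Within 1 kb of the start or end of a protein-coding gene lay 374 (39.5%). This compared with 43.6% of all shared regions and 39.9% of shared regions weighted to the members' levels. The exact binomial 95% interval of the 39.5%, 36.4 to 42.7, is for counting error only. It takes regions as independent and holds no spread between libraries. Within 1 kb of a gene start were 344 of 924 members on chromosomes that the start table covers (37.2%), against 42.4% of shared regions and 38.8% weighted by level. The start table also holds noncoding genes, so these 344 are not a part of the 374. The level rests on the percentiles that the rule used, so the weighted shares are descriptions and not an independent comparison. Deeper inside protein-coding genes lay 323 (34.1%, against 31.5%). Outside protein-coding genes, 222 lay 1 to 100 kb away (23.5%, against 21.9%) and 27 beyond 100 kb (2.85%, against 2.99%). Noncoding genes did not enter these classes, and some of the regions outside lay in one, as at Gm14403 and Gm30782. Among the 103 members with a gap above 10 points, 30 (29.1%) were near a gene end.

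The position shares changed with the DMSO library left out. Without DMSO 1, 53.0% of the regions ranked lower lay within 1 kb of a gene end, above the 43.4% of all regions shared by the 5 remaining libraries. Without DMSO 3, 29.8% did, below the 37.3% of all. With any other library left out the share was 37.0% to 41.4%. The median percentile of regions near a gene start was 63.7, 61.5 and 63.1 in tunicamycin libraries, against 59.3, 64.8 and 67.2 in DMSO libraries, so DMSO 1 lay under all 3 tunicamycin libraries and DMSO 2 and DMSO 3 above them. The part of this order in the count of members was not tested.

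**Figure D4:**
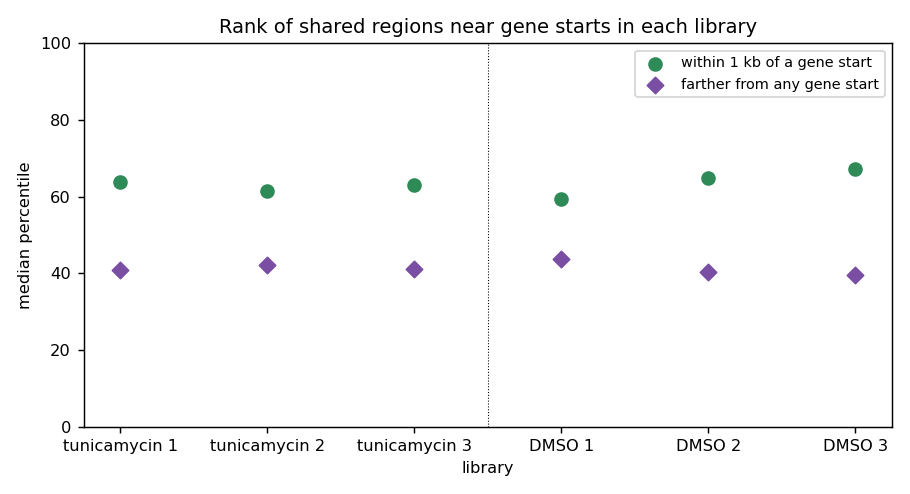
Median percentile (y axis) of shared regions within 1 kb of a gene start (circles) and of those farther away (diamonds) in each library (x axis). Regions near starts have a median of 59.3 in DMSO 1 and 67.2 in DMSO 3, on either side of the 61.5 to 63.7 of the tunicamycin libraries.

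Promoter windows overlapped by members, 408 windows in 310 regions, had a base makeup close to that of windows in all shared regions, of which they are part. Their median share of G or C was 61.7%, against 62.0% over 10601 windows in shared regions and 52.7% over all 32851 windows of the table, and their median ratio of observed to expected CpG was 0.765, against 0.797 and 0.384. The CCAAT box was found in 41.7% of them, against 39.6% in shared regions and 37.4% in the table, and the E-box CACGTG in 14.7%, against 11.1% and 7.15%. Slightly rarer were the GC box (64.2%, against 68.1% in shared regions and 35.7% in the table), the RUNX letters (9.80%, against 12.4% and 16.8%) and the GATA letters (2.70%, against 5.22% and 11.2%). The ETS letters stood in 20.1%, against 20.7% in shared regions and 8.86% in the table, the CCACG letters in 47.1%, against 51.1% and 32.8%, and the NRF1 letters in 5.15%, against 6.03% and 2.71%. AP-1 letters were found in 3.43%, against 4.07% and 7.81%, CRE letters in 2.70%, against 3.71% and 1.79%, and the TATA box in 4.17%, against 5.87% and 13.6%. A match of letters is a description of the window and not a bound site.

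At the edge of the rule the groups were barely apart. Just inside it were regions at the start of Zfp810, a zinc-finger gene, at the start of Idh3g, a subunit of mitochondrial isocitrate dehydrogenase, and beside Mlycd, malonyl-CoA decarboxylase, each with a gap of 0.00481 points. Zfp810, for example, had 97.8, 93.3 and 88.7 in tunicamycin libraries and 98.5, 97.8 and 99.2 in DMSO libraries. Just outside it, with a gap of 0, were regions at Sfi1 and Chl1, tied in all libraries at the bottom and top of the ranking, and 32.4 kb from Slc25a33, with 30.4, 16.4 and 40.1 in tunicamycin libraries and 51.9, 48.9 and 40.1 in DMSO libraries. The widest member, singled out after its values were seen, spanned 4170 bp over the ribosomal RNA pseudogene Rn18s-rs5 (chr17:39843044-39847213), a repeat of many copies. It was near the bottom of the ranking in every library, with folds of 2.08, 2.26 and 2.19 in tunicamycin libraries and 2.21, 2.21 and 2.36 in DMSO libraries, which overlapped.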

How the data were processed

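The data were 6 ATAC-seq peak lists, each called on its own library of about 5000 HSCs. The build (mm10) and the tools MACS2, Bowtie2 2.2.9, Picard, featureCounts and Trim Galore 0.4.4 come from the submitters' processing notes. What each tool did, the mapping filter, any shift of read ends and the peak threshold: not given in the sources used here. As deposited by the authors, every peak carries a score for display, the ratio (fold enrichment) used here for ranking, and p and q as −log10 values. These values belong to each peak and served to rank and filter peaks within a list.

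Peaks were merged with 1 bp overlap in Python 3.11.15 (pandas 2.3.3, NumPy 2.4.6), checked against bedtools 2.31.1, and the ranking was tested on simulated data. Each region took the closest gene body among 21887 protein-coding genes in a RefSeq table (GRCm38.p6). Exons and introns were not distinguished. The promoter table used here has no entry on chromosome 18, whose regions are left out of shares near gene starts. Of 631 gene list entries 629 matched.

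Samples were grouped by the treatment in the labels. Named regions were the 12 widest gaps, up to 4 per gene list by gap, genes with 3 or more members, groups within 50 kb, the 6 widest at promoter windows, 3 on either side of the threshold, and Emp1. Erg, Ccna2, Kmt2d, Smad7 and the widest region were added after their values were seen. Members and lists were chosen with earlier results of these data known. Alternatives were another ranking column, a mean fold, stricter peaks, lists of one length, a cover of the region, summit windows, autosomes, scaling by the median, a margin and leaving out each library.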

Additional observations from a re-analysis of the deposited data

How the results depend on the processing

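The count of 946 stayed within 1.5 times under ranking by the −log10 q-value (1083, of which 594 were among the 946), a mean fold (955), peaks with q at most 1e-05 (793), lists of one length (754), summit windows (931), autosomes (936) and scaling by the median (1010). It was 538 where peaks had to cover 50% of the region and 307 with a margin of 5 points, and 1677 to 3418 with 1 library left out. The number of shared regions changed too, for example to 12211 with 50% cover and 17040 with lists of one length. As a share of the regions shared in each setting, members made up 4.41% to 5.20% with all libraries and no margin, against 4.55%. The share was 1.48% with the margin and 7.97% to 16.3% with 1 library left out. The rank of the count was 7 to 12 of 20 under the alternatives with all libraries, and 1 to 9 of 10 with 1 left out. The share near a gene end was 43.8% with q at most 1e-05, 46.4% with lists of one length, 45.0% with 50% cover and 30.6% with the margin, and 29.8% to 53.0% with 1 library left out. In the first 3 of these settings the share over all shared regions was 46.9%, 48.7% and 47.3%. The share inside a gene was 66.1% with the margin and 65.6% to 78.0% with 1 library left out. The median fold ratio was 0.831 with lists of one length, 0.830 with 50% cover and 0.783 with the margin. Fewer regions qualify by construction under the cover and the margin, and for the other shifts the cause was not tested.

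Of 850 mean differences at 64 named regions, 713 moved by no more than the SD of the 3 tunicamycin libraries at that region and 136 moved by more. In 1 case the sign reversed: at Smad7 the mean percentile, tunicamycin minus DMSO, was 0.489 under ranking by the −log10 q-value. The separation itself was lost more often. It was kept at 46 of the 64 regions under ranking by the −log10 q-value, at 25 with the margin and at 40 to 64 under the other alternatives. A region no longer shared in a setting was counted as lost. With 50% cover 44 of the 64 were still shared and 40 kept the separation, and with lists of one length 46 and 44. Bax kept it in 7 of 15 alternatives, Bak1 and Pecam1 in 9. No paired analysis was possible because the results come from no test and nothing in the labels ties a replicate number to a shared animal or batch. Replicates are few, and read depth, which sets how finely folds are resolved, is unknown.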
